A study of Cricetulus griseus with 9 samples.

Results

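The genes described here are Narf and the nuclear lamin group, which comprises the lamin genes Lmna, Lmnb1 and Lmnb2 and the prelamin A protease gene Zmpste24. They were picked by their mouse Ensembl identifiers, and all 5 were present among the 15557 genes of the deposited table. The files do not pair identifiers with names, so the names are those the selection gave: ENSMUSG00000000056 for Narf, ENSMUSG00000028063 for Lmna, ENSMUSG00000024590 for Lmnb1, ENSMUSG00000062075 for Lmnb2 and ENSMUSG00000043207 for Zmpste24. The selection was made with the differences between the pre-miR and anti-miR groups known. Those differences are therefore given as a description, with no p-value, and only the difference between the 2 pre-miR groups was tested.

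CHO-K1 is an adherent line from Chinese hamster ovary. Its cells received, by lipid transfection for 48 h, an inhibitor or a synthetic precursor of a microRNA. The inhibitor, anti-miR-29a, is described by the submitters as blocking miR-29a and miR-29b-1 alike. The precursors are pre-miR-29a and pre-miR-29b-1, and each supplies the microRNA it is named for. There were 3 libraries per group and 9 in all, from 1 cell line in charcoal-stripped serum, and every group carried the transfection reagent. Cells without a transfected RNA, or with a control RNA, were not analysed here. A difference between a pre-miR and anti-miR-29a therefore cannot be split into an effect of more and of less miR-29. The text of the series speaks of separate experiments, and if each molecule had its own, the experiments cannot be told apart from the groups. The labels speak of triplicates without saying that each library had its own culture. A p-value therefore speaks to library spread, possibly technical, and each level is an average over a culture, in which fewer cells with a transcript and less transcript per cell cannot be told apart.

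Lamins are intermediate filament proteins that line the inner face of the nuclear envelope, where they carry the shape of the nucleus and anchor chromatin. Lmna encodes lamin A and lamin C by alternative splicing, while Lmnb1 and Lmnb2 encode the B-type lamins. Lamin A is made as prelamin A, whose tail is farnesylated and then cut off by the zinc metalloprotease Zmpste24. The B-type lamins keep their farnesyl group and stay close to the membrane. Narf was named as a nuclear protein that binds the tail of prelamin A, and it is related in sequence to iron-only hydrogenases. MicroRNAs of the miR-29 family pair with target mRNAs and lower their level or their translation.

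Levels were deposited as FPKM, fragments counted on a gene model, scaled by its length and by the size of the library. All 5 genes passed the filter for testing, a mean of at least 1 FPKM, which left 9504 genes. Low values fell in steps of 1 read once 200 bases were subtracted from each coding length. These steps implied a scaling total of 15900000 to 21870000 reads per library. It was 15900000 to 18790000 in the anti-miR-29a group, 17430000 to 19980000 with pre-miR-29a and 19580000 to 21870000 with pre-miR-29b-1. The scaling of the deposited values is not given, so these totals need not equal the reads of each library. The median log2 difference over all tested genes was -0.006 for pre-miR-29b-1 and -0.016 for pre-miR-29a against the anti-miR-29a group.

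On the CriGri_1.0 assembly, Narf lies on scaffold JH000058 from 3472482 to 3487722 on the plus strand, with 11 coding exons and a coding length of 1389 bases. Lmna lies on JH000344 from 1311823 to 1330712, minus strand, and has 1992 coding bases in 12 exons. Its 2 deposited models have the same exons, so the value does not tell lamin A and lamin C apart. Lmnb1 lies on JH000103 from 2068035 to 2088746 on the plus strand. Its model holds 1392 bases, against 1809 bases for Lmnb2 on JH000665 from 939251 to 954610, also on the plus strand. Zmpste24 lies on JH000283 from 121803 to 160344 on the plus strand, with 10 coding exons and 1428 bases. None of these models shared an exon base with another gene, and model lengths cover coding bases only.

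Narf showed the widest separation between groups of the genes in this set. It stood at 31.0, 30.9 and 33.3 FPKM in the anti-miR-29a libraries. With pre-miR-29b-1 it stood at 7.35, 7.86 and 8.46 FPKM, and with pre-miR-29a at 9.90, 7.84 and 8.74 FPKM. All 6 pre-miR libraries were below all 3 anti-miR-29a libraries, and the libraries of the pre-miR groups overlapped. The means were 31.7 ± 1.38 FPKM (SD, n = 3) with anti-miR-29a, 7.89 ± 0.55 FPKM with pre-miR-29b-1 and 8.82 ± 1.03 FPKM with pre-miR-29a. The anti-miR-29a mean was 4.02 times that with pre-miR-29b-1 and 3.60 times that with pre-miR-29a. On the log2(FPKM + 1) scale, which understates changes of low genes, the differences were -1.88 (SE 0.086) for pre-miR-29b-1 and -1.74 (SE 0.086) for pre-miR-29a.

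Among the 9504 tested genes, the Narf difference ranked 36 from the lowest with pre-miR-29b-1 and 62 from the lowest with pre-miR-29a. On that scale, at least 2-fold lower were 3.62% of tested genes with pre-miR-29b-1 and 4.5% in the pre-miR-29a group, and Narf was the 1 gene of the 5 in that class. The values rested on 584 to 744 implied reads per library with anti-miR-29a and on 181 to 230 with a pre-miR. Counting error alone, as an SD, came to between 3.67% and 7.43% of the value. The gap between the highest pre-miR library and the lowest anti-miR-29a library was 20.97 FPKM.

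**Figure D1:**
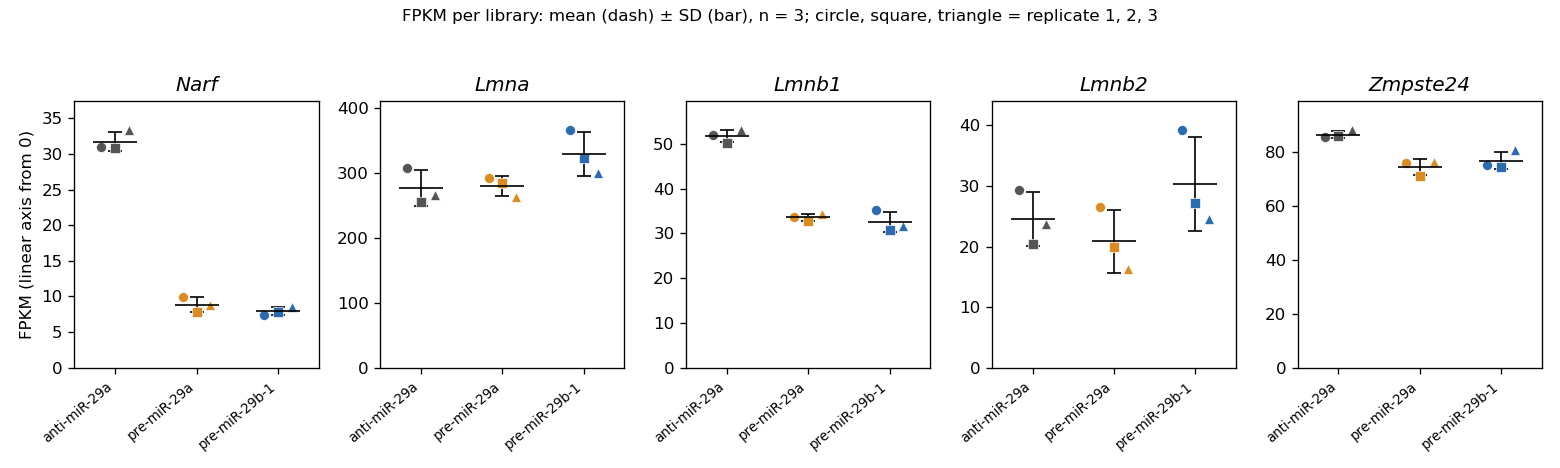
FPKM of Narf, Lmna, Lmnb1, Lmnb2 and Zmpste24 (y axis, linear from 0, a scale per gene) in each of the 9 libraries by group (x axis), with the mean as a dash, the SD as a bar (n = 3) and symbols for replicate numbers. Narf and Lmnb1 stand apart in the anti-miR-29a group, Zmpste24 does so by a small margin, and Lmna and Lmnb2 overlap between each pre-miR group and anti-miR-29a.

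Of the A-type lamin gene Lmna, the level was high in all groups. It stood at 308.0, 254.8 and 266.3 FPKM with anti-miR-29a. With pre-miR-29a it stood at 291.8, 284.8 and 262.7 FPKM, within the anti-miR-29a range. With pre-miR-29b-1 it stood at 365.6, 322.8 and 299.6 FPKM, where the lowest library lay below the highest anti-miR-29a library. The log2 differences from anti-miR-29a were 0.25 (SE 0.089) for pre-miR-29b-1 and 0.02 (SE 0.089) for pre-miR-29a. Over all 9 libraries Lmna averaged 295.1 FPKM, at the 92.7 percentile of the tested genes, with 7259 to 14328 implied reads per library.

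The B-type lamin genes did not follow a common course. Lmnb1 stood at 52.1, 50.3 and 53.1 FPKM with anti-miR-29a. It stood at 35.2, 30.8 and 31.8 FPKM with pre-miR-29b-1 and at 33.7, 32.8 and 34.3 FPKM with pre-miR-29a. Every pre-miR library was below every anti-miR-29a library, by at least 15.1 FPKM, while the pre-miR groups overlapped. The means were 51.8 ± 1.41 FPKM (SD, n = 3) with anti-miR-29a, 32.6 ± 2.28 FPKM with pre-miR-29b-1 and 33.6 ± 0.73 FPKM with pre-miR-29a. The anti-miR-29a mean was thus 1.59 and 1.54 times the pre-miR means, and the log2 differences were -0.66 (SE 0.057) and -0.61 (SE 0.057). Differences of at least 1.5-fold downward were found in 10.6% of tested genes with pre-miR-29b-1 and in 12.5% with pre-miR-29a, and Narf and Lmnb1 were the 2 genes of the 5 among them. Lmnb1 lay near that limit, and after quantile normalization its differences were -0.58 and -0.52, short of it.

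Lmnb2, the other B-type lamin gene, stood at 29.3, 20.5 and 23.7 FPKM with anti-miR-29a. It stood at 39.2, 27.3 and 24.5 FPKM with pre-miR-29b-1 and at 26.5, 19.9 and 16.2 FPKM with pre-miR-29a. All 3 groups overlapped. The log2 difference from anti-miR-29a was 0.28 (SE 0.21) for pre-miR-29b-1 and -0.23 (SE 0.21) for pre-miR-29a, each with an interval that includes 0, from -0.18 to 0.74 and from -0.69 to 0.23.

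Zmpste24, the protease that removes the prelamin A tail, stood at 85.5, 86.0 and 88.1 FPKM with anti-miR-29a. It stood at 75.3, 74.6 and 80.7 FPKM with pre-miR-29b-1 and at 75.9, 71.0 and 76.2 FPKM with pre-miR-29a. The pre-miR libraries were all below the anti-miR-29a libraries, but the difference was small, at -11.2% of the anti-miR-29a mean with pre-miR-29b-1 and -14.1% in the pre-miR-29a group. The log2 differences were -0.17 (SE 0.050) and -0.22 (SE 0.050). After quantile normalization its libraries overlapped between the pre-miR-29b-1 and anti-miR groups, with a difference of -0.08. The pre-miR-29a difference became -0.15.

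In all, Narf, Lmnb1 and Zmpste24 made 3 of the 5 genes with every pre-miR-29b-1 library below every anti-miR-29a library, an order that 35.2% of the tested genes showed. The same 3 genes had every pre-miR-29a library below, beside 33.1% of tested genes. No gene of the set had every library above, beside 32.3% and 29.1%. These comparisons share the anti-miR-29a libraries, and the genes were chosen with them known, so nothing is read from the counts.

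**Figure D2:**
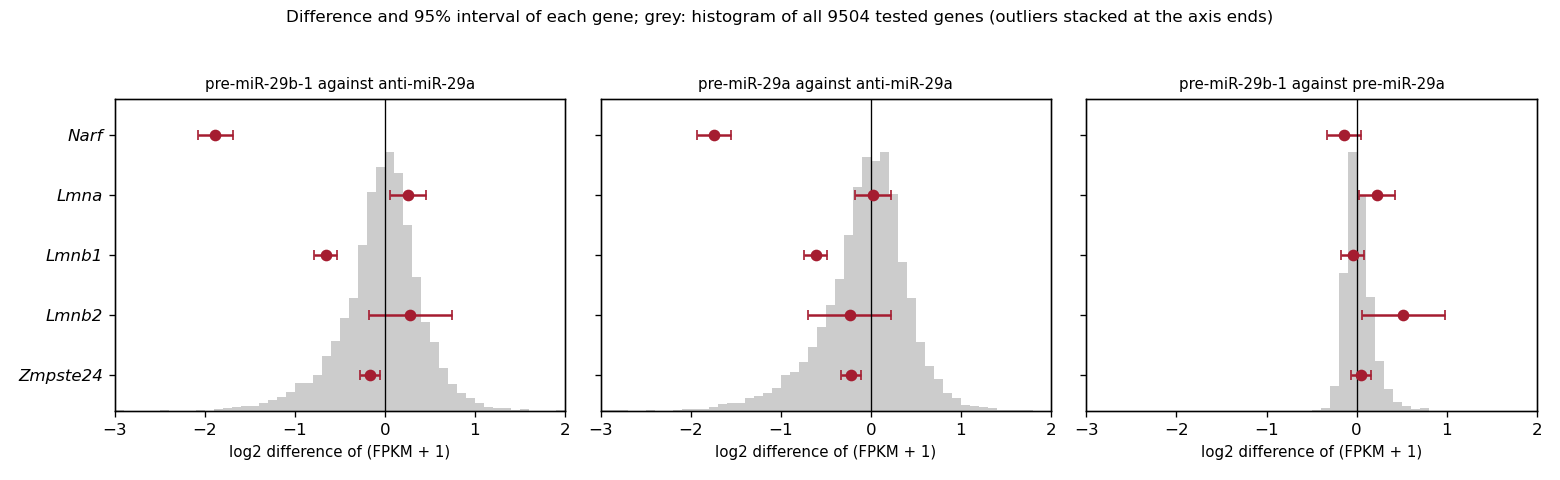
Log2 difference of FPKM + 1 (x axis) for each of the 5 genes, as a point with its 95% interval, in 3 comparisons, over a grey histogram of all 9504 tested genes. Narf lies in the lower tail at -1.88 and -1.74 against anti-miR-29a, Lmnb1 at -0.66 and -0.61, and between the pre-miRs Lmna lies at 0.23 and Lmnb2 at 0.52.

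The FPKM are scaled to gene length, so levels of different genes can be set side by side as far as the gene models are complete. The models are mouse proteins placed on the hamster assembly, and their completeness was not checked. The order of genes and the size of shares and ratios between genes are therefore approximate. Each gene has the same model in all groups. In the anti-miR-29a group the order of mean levels was Lmna at 276.3 FPKM, Zmpste24 at 86.5, Lmnb1 at 51.8, Narf at 31.7 and Lmnb2 at 24.5 FPKM. The libraries of neighbours in that order did not overlap, although the lowest Narf library, at 30.9 FPKM, was close to the highest Lmnb2 library at 29.3 FPKM. In both pre-miR groups Narf came last, below Lmnb2. The ratio of Narf to Lmnb2 was 1.06 to 1.51 in the anti-miR-29a libraries, 0.19 to 0.35 with pre-miR-29b-1 and 0.37 to 0.54 with pre-miR-29a. With pre-miR-29b-1, Lmnb1 and Lmnb2 did not differ beyond their spread, at 32.6 ± 2.28 and 30.3 ± 7.82 FPKM (SD, n = 3). With pre-miR-29a they did not overlap, at 33.6 ± 0.73 and 20.9 ± 5.22 FPKM. Per 100 FPKM of Lmna there were 11.6 ± 1.32 FPKM of Narf with anti-miR-29a, 2.42 ± 0.41 with pre-miR-29b-1 and 3.16 ± 0.35 in the pre-miR-29a group.

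The share of Lmnb1 in the summed FPKM of the lamin genes was lower in every pre-miR library than in every anti-miR-29a library. The summed FPKM of the 3 lamin genes was 352.7 ± 33.0 (SD, n = 3) with anti-miR-29a, 334.2 ± 19.6 with pre-miR-29a and 392.3 ± 43.2 with pre-miR-29b-1, and the libraries of the anti-miR-29a group overlapped with those of either pre-miR group. Lmnb1 made up 14.8% ± 1.20 of this sum with anti-miR-29a, 10.1% ± 0.75 with pre-miR-29a and 8.34% ± 0.51 with pre-miR-29b-1. Lmna made up 78.3% ± 0.74, 83.7% ± 0.75 and 84.0% ± 0.84, and Lmnb2 6.91% ± 0.62, 6.20% ± 1.21 and 7.65% ± 1.10. The Lmnb2 share overlapped between all groups.

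Shares add up to a whole, so a lower Lmnb1 share raises the others. The ratio of Lmna to Lmnb1 avoids the sum. It ran from 5.02 to 5.91 in the anti-miR-29a libraries, from 7.66 to 8.67 with pre-miR-29a and from 9.43 to 10.5 with pre-miR-29b-1. No group overlapped another in this ratio, which was picked out after its values were seen and was not tested. How often ratios of other genes do so was not counted. Within the set, the ratio of Narf to Lmnb2 also separated the groups. The ratios of Lmna to the summed B-type genes, of Lmnb1 to Lmnb2 and of Lmna to Zmpste24 overlapped between the pre-miR groups.

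**Figure D3:**
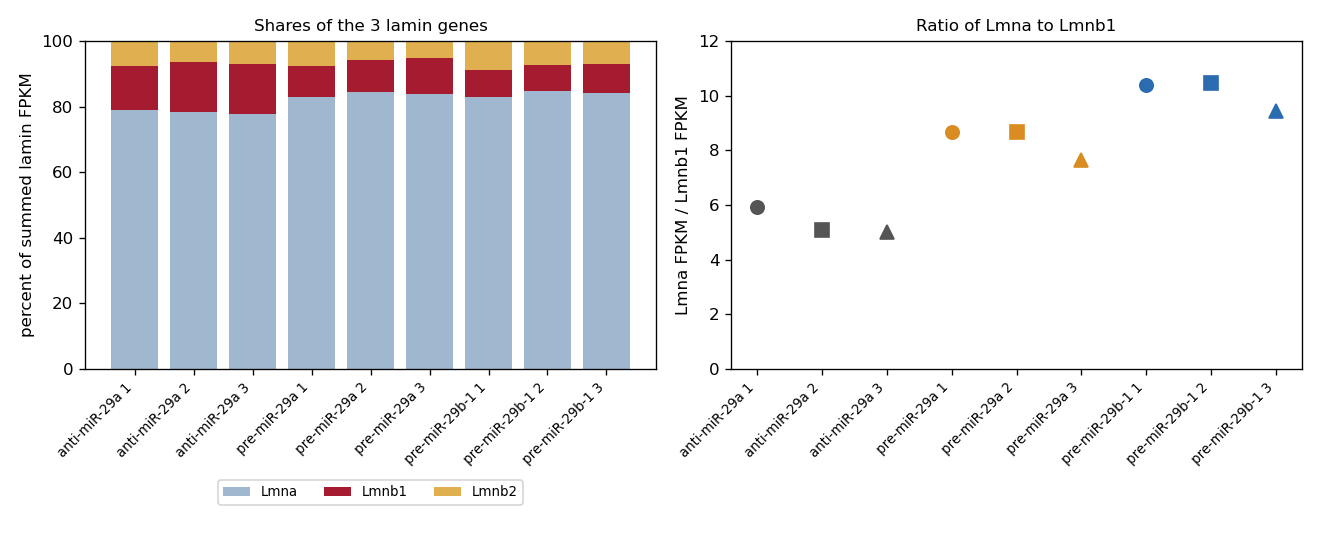
Left, percent of the summed lamin FPKM (y axis, from 0) held by Lmna, Lmnb1 and Lmnb2 in each library (x axis, group and replicate number); right, the ratio of Lmna to Lmnb1 FPKM in the same libraries. The Lmnb1 share is between 13.4% and 15.5% in the anti-miR-29a libraries and at most 10.9% in the others. The ratio, picked out after its values were seen, separates the 3 groups.

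The pre-miR groups were then compared directly, which asks whether the levels of these genes differ between the 2 transfections. If each precursor had its own experiment, such a difference cannot be told apart from one between experiments. None of the 5 genes passed an adjusted p of 0.05 (limma, Benjamini-Hochberg over 9504 genes), beside 0.0105% of all tested genes. Lmna was higher with pre-miR-29b-1 in every library, an order seen in 10.2% of tested genes. Its log2 difference was 0.23 (SE 0.089, 95% interval 0.03 to 0.43), with an adjusted p of 0.264 (limma). Lmnb2 had the largest difference of the set, 0.52 (SE 0.21, 95% interval 0.06 to 0.98), with an adjusted p of 0.273 (limma). It ranked 144 from the highest among the tested genes, and its libraries overlapped between the groups. At an unadjusted p under 0.05 (limma), Lmna and Lmnb2 were 2 of 5, beside 16.5% of tested genes. With libraries weighted by their estimated precision, both passed, Lmna with an adjusted p of 0.00974 and Lmnb2 with 0.0057 (limma), but so did 38.2% of all tested genes. With the replicate number as a block, Lmnb2 passed with an adjusted p of 0.0337 (limma), beside 1.94% of tested genes. The labels do not say that these numbers pair the libraries. Without replicate 1 of pre-miR-29a, 14.5% of tested genes passed and none of the 5 did, with Lmnb2 at 0.69 and an adjusted p of 0.0528 (limma).

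For the other genes the interval of the difference was narrow. As a fold of FPKM + 1, Narf was 0.91 with pre-miR-29b-1 over pre-miR-29a (95% interval 0.79 to 1.04) and Lmnb1 was 0.97 (0.89 to 1.06), while Zmpste24 was 1.03 (0.96 to 1.12). The adjusted p was 0.419 for Narf, 0.701 for Lmnb1 and 0.630 for Zmpste24 (limma). The interval for Lmnb2, from 1.04 to 1.97, leaves a wide span of differences, and that for Lmna ran from 1.02 to 1.35.

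Lmnb2 varied most within groups. Its coefficient of variation was 18.2% to 25.8% in the 3 groups and 23.0% on average, above that of 96.0% of tested genes, where the median was 6.05%. Counting error for Lmnb2 came to between 2.69% and 4.69%, on 455 to 1379 implied reads. In every group the library numbered replicate 1 was the highest, at 1.51 times the mean of the other libraries with pre-miR-29b-1, 1.47 times with pre-miR-29a and 1.33 times with anti-miR-29a. Lmna was also highest in replicate 1 of every group, at 1.17, 1.07 and 1.18 times. This order was shown by 12.2% of tested genes, against 3.16% for replicate 2 and 3.2% for replicate 3. What sets the replicate 1 libraries apart was not tested.

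The other genes of the set did not share that order. Narf was highest in replicate 1 in the pre-miR-29a group alone, and Lmnb1 in the pre-miR-29b-1 group alone. Zmpste24 was highest in replicate 3 of every group, within a coefficient of variation of 1.61% to 4.33%. With the replicate 1 libraries of all groups left out, which was chosen after seeing the data, the log2 differences of both pre-miRs from anti-miR-29a were -1.84 for Narf, -0.66 for Lmnb1 and -0.20 for Zmpste24. Lmnb2 then stood at -0.03, against 0.02 with all libraries. These values average opposite signs. Without the replicate 1 libraries Lmnb2 stood at 0.22 with pre-miR-29b-1 and at -0.28 with pre-miR-29a. Its remaining pre-miR-29a libraries were then below its remaining anti-miR-29a libraries.

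**Figure D4:**
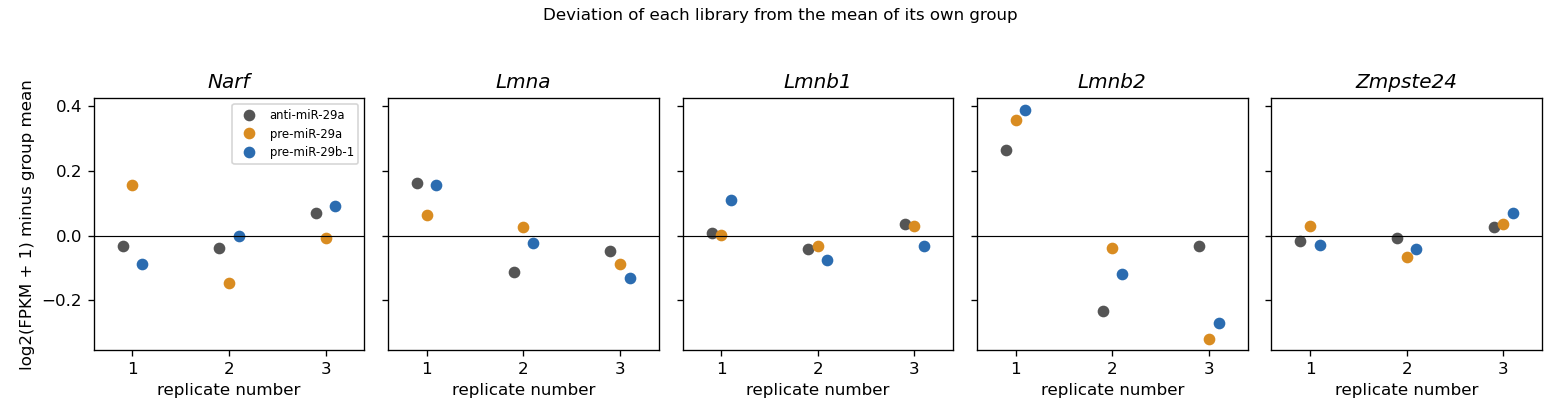
Deviation of log2(FPKM + 1) in each library from the mean of its own group (y axis) by replicate number (x axis), coloured by group, for the 5 genes. The replicate 1 libraries are above 0 in all groups for Lmna and, by more, for Lmnb2, and the points of Lmnb1 and Zmpste24 stay close to 0.

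Narf was set against its neighbours on the scaffold. The nearest gene model starts on the other side of a gap of 5117 bases, on the opposite strand and pointing away from Narf, at 3462510 to 3467364 of JH000058. It was singled out after its values were seen. It stood at 112.7 ± 0.47 FPKM (SD, n = 3) with anti-miR-29a, 40.4 ± 3.58 FPKM with pre-miR-29b-1 and 39.0 ± 1.74 FPKM with pre-miR-29a. It had every pre-miR library below every anti-miR-29a library, while its pre-miR groups overlapped. This neighbour shared that order with 35.2% of tested genes for pre-miR-29b-1 and 33.1% for pre-miR-29a. Its log2 difference for both pre-miRs against anti-miR-29a was -1.48 (SE 0.057), beside -1.81 (SE 0.075) for Narf. The next model past that neighbour stood at 0.45. The nearest model on the other side of Narf, 63739 bases away, stood at -0.24.

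Pairs of neighbours that were both at least 2-fold lower were counted over all tested genes. Of 5578 adjacent pairs of tested genes, 412 had at least 1 gene at least 2-fold lower with the pre-miRs together, and in 10 pairs both were. Among 527 pairs that point away from each other within 10 kb, 28 had at least 1 such gene and 2 had both, of which Narf and its neighbour are 1. That pair was picked with its values known and is part of these counts. No expected number was worked out, so nothing is read from them. The neighbours of the other genes of the set had differences of both signs. For Lmnb1 the 3 tested models around it stood between -0.26 and 0.13. For Lmna they stood at -0.77, 59970 bases away, and at 0.40, 31699 bases away. The tested neighbour of Lmnb2, 11283 bases away and pointing away from it, was higher with the pre-miRs, at 0.96, beside 0.02 for Lmnb2 itself. Those of Zmpste24 stood at 0.30 and 0.10.

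The 2 identifiers below had profiles closest to that of Narf over the 9 libraries, by the root mean square difference of centred log2(FPKM + 1) values among 8613 tested genes of at least 5 FPKM. ENSMUSG00000020674 differed by 0.080, at 146.6 ± 2.65 FPKM (SD, n = 3) with anti-miR-29a, 38.7 ± 1.52 with pre-miR-29b-1 and 39.0 ± 5.13 in the pre-miR-29a group. ENSMUSG00000018593 differed by 0.083, at 1842 ± 17.8, 516.4 ± 9.16 and 569.3 ± 10.7 FPKM. In all, 59 genes lay within 0.2 of Narf. Within the set, Lmnb1 was the closest to Narf by this measure, at 0.57, and Lmna and Lmnb2 the farthest, at 0.94 each.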

How the data were processed

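RNA was read as poly(A) libraries from 9 CHO-K1 samples. The FPKM table was deposited by the authors, who ran FastQC, TopHat2 2.0.13 and Cuffnorm per the submitters' processing notes. For Cuffnorm, the sources used here give no version, scaling, strand setting or filter. Each gene model is a mouse protein (Ensembl release 66) placed on CriGri_1.0, per the file headers, and other values of the deposited annotation used here are exon starts and ends. Of the model lengths 99.87% were multiples of 3, so lengths are coding lengths. Values of up to 20 reads, in genes with 1 model of at least 1000 bases, came within 0.2 of a whole number in 98.4% to 99.4% of cases once 200 bases were subtracted from the length, and in 59.5% to 64.1% with the full length, so FPKM are per length less 200 bases. This gave the implied reads.

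Differences were fitted with limma 3.58.1 (R 4.3.3), with trended variances, on log2(FPKM + 1), in 1 fit of all libraries and for genes whose mean reached 1 FPKM. They were two-sided, with Benjamini-Hochberg adjustment over 9504 genes. The fit was tested on simulated data with independent libraries of equal precision. That simulation does not cover effects shared by replicate number or libraries of unequal precision. Samples were grouped by the transfection their labels give. All genes of the set were described, and the profiles most like Narf were the 2 closest at a mean of at least 5 FPKM. The genes, lists and rules were chosen with earlier results of these data known. None of the 15557 identifiers matched the RefSeq table of CriGri-PICRH-1.0, so 4 lists of nuclear envelope and related genes, set by symbol, were not used here. Alternatives changed the pseudocount, filter, scaling, variance model, weights and block, and left out each library.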

Additional observations from a re-analysis of the deposited data

How the results depend on the processing

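Over the alternatives, Narf, Lmnb1 and Zmpste24 kept negative differences against anti-miR-29a in each comparison. The Narf difference for both pre-miRs ran from -1.92 with a pseudocount of 0.1 to -1.46 with 5, which shrinks low genes by construction, and from -1.85 to -1.77 when 1 library was left out. The Lmnb1 difference ran from -0.66 to -0.55, the latter with quantile normalization. Lmnb2 for both pre-miRs changed sign, from -0.09 to 0.16 when 1 library was left out, and it was -0.13 with array weights. Its libraries overlapped in every case where all were used. The number of genes with all pre-miR-29b-1 libraries lower was 3, or 2 with quantile normalization, and 3 to 4 for pre-miR-29a. Lmnb2 was the added gene for pre-miR-29a, where replicate 1 of that group was left out. Between the pre-miRs, 0 genes of the set passed, but 2 did with array weights (Lmna, adjusted p 0.00974, and Lmnb2, adjusted p 0.0057, limma) and 1 with the replicate number as a block (Lmnb2, adjusted p 0.0337, limma). Of all tested genes, 1 passed in that comparison, 3627 with array weights, 184 (1.94%) with the block, 398 without the replicate 1 libraries of all groups and 1378 without replicate 1 of pre-miR-29a. The cause was not tested. Over these alternatives the adjusted p ran from 0.00974 to 0.634 for Lmna and from 0.0057 to 0.66 for Lmnb2. Same-numbered libraries of different groups had r of -0.02 to 0.29 in their deviations across genes, over 0.1 in 6 of 9 pairs. For different numbers r was -0.28 to 0.09, and a library correlated best with its own number in 13 of 18 cases. Deviations from a group mean cancel within the group, so a higher r for same numbers brings a lower r for different numbers. These values are therefore not separate evidence. They are a hint from the data and not from the design, so the labels' numbers were not taken to pair the libraries. Lmnb2 and Lmna were each higher with pre-miR-29b-1 in 3 of 3 same-numbered comparisons with pre-miR-29a. The block changed no other call of the set. With 1 library left out, the mean Lmnb1 share ran from 14.4% to 15.5% (anti-miR-29a), 9.65% to 10.3% (pre-miR-29a) and 8.04% to 8.51% (pre-miR-29b-1). In the same order of groups, the mean Lmna share ran from 77.9% to 78.7%, 83.4% to 84.1% and 83.6% to 84.5%. That of Lmnb2 ran from 6.60% to 7.22%, 5.54% to 6.71% and 7.02% to 8.03%. Depth limits Narf most, at 181 implied reads in its lowest library.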
